A study of Mus musculus with 6 samples.

Results

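Genes of cell-to-cell contact, 10 in number, were followed in ribosome-bound RNA of lung pericytes: 5 cadherins (Cdh2, Cdh4, Cdh6, Cdh11 and Cdh13), 4 connexins (Gja1, Gja4, Gja5 and Gjc1) and Ctnnb1, which encodes β-catenin. They were chosen by name, with earlier results of these data known, and matched by Ensembl identifier. They make up 10 of the 21603 genes in each table. The study compared 3 control with 3 Yap1,Wwtr1 iPCKO samples from C57BL/6 mouse lung at postnatal day 8 (P8). Controls were Yap1 lox/+ Wwtr1 lox/+ (labelled Yap1+/-;Wwtr1+/-) and mutants Yap1 lox/lox Wwtr1 lox/lox (labelled Yap1-/-;Wwtr1-/-), so that the controls had also lost 1 copy of each gene in recombined cells. Both groups carried Pdgfrb(BAC)-CreERT2 and Rpl22 lox/+, and both received tamoxifen in the first days of life. Recombination with this transgene marks PDGFRβ-expressing cells, and the haemagglutinin-tagged ribosomal protein RPL22 that it switches on (RiboTag) allows their ribosomes to be pulled down from whole lung, so that RNA of other cells can be carried along. Animals had been combined irrespective of their sex, and whether a sample was 1 mouse or a pool is not given in the sources used here.

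Pericytes are mural cells that share a basement membrane with the capillary endothelium and reach through it at small contacts. Classical cadherins hold such contacts together by binding the same or a related cadherin on the next cell, and their cytoplasmic tails bind β-catenin and α-catenin, which link them to actin. Connexins assemble into gap junction channels that pass ions and small molecules between neighbouring cells. β-Catenin also has a separate life in the nucleus, where it acts with Tcf/Lef factors downstream of Wnt ligands. YAP1 and TAZ (the product of Wwtr1) are transcriptional co-activators that work with TEAD factors and respond to cell contact and mechanical load.

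Levels are given in RPKM, read counts scaled by exon length and by sequencing depth. Different genes of a sample can be set beside each other only as far as the exon lengths used allow, and how these were set is not given. A log2 fold change is the iPCKO mean less the control mean of log2(RPKM + 0.1), tested with limma over 12034 genes that reached 1 RPKM in 3 or more samples, with Benjamini-Hochberg adjustment. A gene is said to have risen or fallen, or to be called, where the adjusted p was below 0.01 and the absolute log2 fold change above 0.5.

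Yap1 fell from 13.2, 11.5 and 12.4 RPKM in controls to 5.76, 5.83 and 5.25 RPKM in iPCKO samples, a log2 fold change of -1.12 (SE 0.093, limma adjusted p = 0.00017). Wwtr1 read 71.3, 53.8 and 56.1 RPKM against 63.5, 60.3 and 62.2 RPKM, with a log2 fold change of 0.05 (limma adjusted p = 0.82). A gene-level value counts reads from all exons, and whether the floxed part of Wwtr1 was lost cannot be read from it. At the protein level, the paper reports much lower YAP1 and TAZ in whole lung lysates of Yap1,Wwtr1 iPCKO mice than of littermate controls, at a later age. The depth implied by the RPKM steps was 14240000 to 39600000 reads per sample. The 4 Y-linked genes examined averaged 8.76 and 10.2 RPKM in control replicates 1 and 3 and at most 0.0187 RPKM in control replicate 2 and every iPCKO sample. Beyond control 2, the only control without Y-linked transcripts, sex and genotype cannot be told apart. The difference of the iPCKO mean from control 2 alone is given below on the log2 scale beside each called gene of the 10, and with most of the other called genes that are named.

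Pdgfrb, which marks the targeted cells, read 1369 to 1666 RPKM in controls and 1193 to 1447 RPKM in iPCKO samples. The summed level of 14 pericyte markers was 4988 to 6038 RPKM in controls and 4762 to 5672 RPKM in iPCKO samples, which overlapped, although 3 of the markers rose and 3 fell. Of those that rose, Cspg4 went from 77.1 to 87.5 RPKM in controls to 158 to 182 RPKM in iPCKO samples. Of those that fell, Rgs5 went from 84.0 to 156 RPKM to 45.4 to 60.7 RPKM. Defining markers of other lineages differed in level. Endothelial Pecam1 read 14.4 to 18.7 RPKM in controls and 17.1 to 17.3 RPKM in iPCKO samples, and smooth muscle Myh11, as high as the most abundant contact gene, read 133 to 153 RPKM and 121 to 152 RPKM. Epithelial Epcam read 1.44 to 1.64 RPKM and 1.53 to 1.9 RPKM, and Schwann cell Sox10 stayed at or below 0.0558 RPKM in all 6 samples, an implied 1 to 7 reads.

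**Figure D1:**
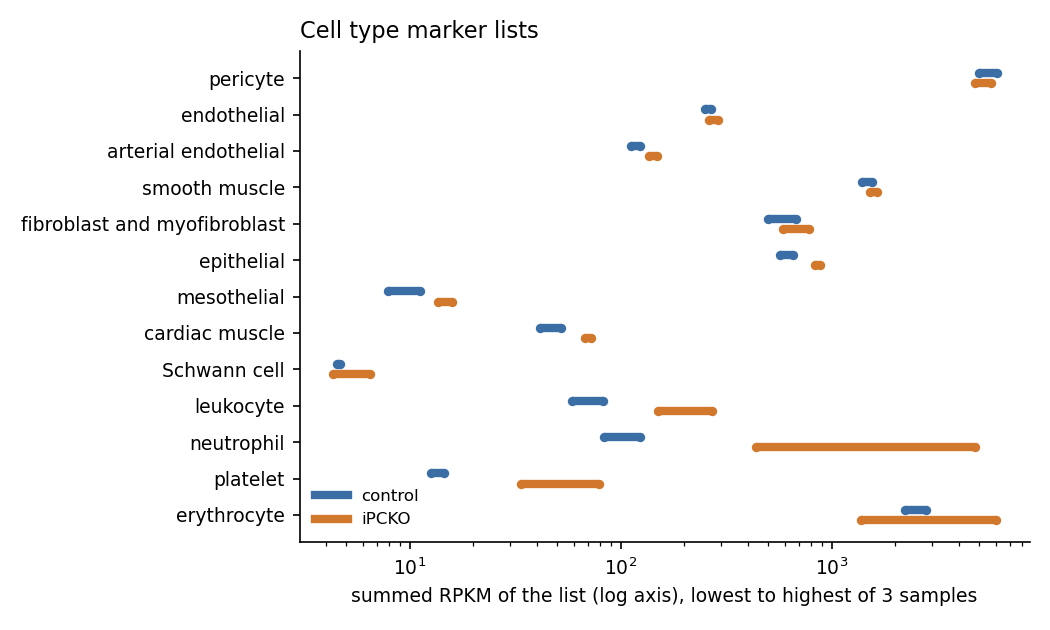
Summed RPKM of each cell type marker list on a log axis, with 1 bar per group from its lowest to its highest sample (3 control, 3 iPCKO). The neutrophil list lies at 83.3 to 123 RPKM in controls and 440 to 4760 RPKM in iPCKO samples, while the pericyte and endothelial bars overlap.

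Several lists of other cell types were higher in all 3 iPCKO samples than in all 3 controls. Of all tested genes, 4.11% were called as higher and 2.68% as lower. The sum of 10 leukocyte markers was 58.9 to 82.5 RPKM in controls and 151 to 270 RPKM in iPCKO samples, and 8 of the 10 markers rose. The sum of 10 neutrophil markers was 83.3 to 123 RPKM against 440 to 4760 RPKM, and 6 of the 10 rose; 2 of the 10 had passed the filter through 1 group alone. The sum of 8 platelet markers was 12.7 to 14.5 RPKM against 33.7 to 78.9 RPKM, with 6 of 7 tested markers called, where 2 of the 7 had likewise passed through 1 group alone. Epithelial markers summed to 567 to 654 RPKM against 834 to 878 RPKM (2 of 11 tested called), mesothelial markers to 7.91 to 11.2 RPKM against 13.7 to 15.9 RPKM (1 of 4) and cardiac muscle markers to 41.5 to 52.4 RPKM against 68.1 to 72.3 RPKM (0 of 5 past both thresholds in limma, 5 of 5 at an unadjusted p below 0.05). Arterial endothelial markers summed to 112 to 124 RPKM against 136 to 148 RPKM, with 2 of 9 tested called higher and 1 lower, and 1 of the 9 tested through 1 group alone. Fibroblast, erythrocyte, Schwann cell, smooth muscle and endothelial sums overlapped. The erythrocyte sum was large and varied, at 2222 to 2783 RPKM in controls and 1370 to 6027 RPKM in iPCKO samples. Single markers still differed: 2 of 10 tested smooth muscle markers rose and 2 fell. Of 12 endothelial markers 2 rose, and of 12 fibroblast and myofibroblast markers 1 fell. The plot of marker sums shows these ranges. In a pulldown from whole lung, changes in cell number, in RNA per cell and in the amount of RNA carried along cannot be told apart.

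Of the 10 contact genes, Gjc1 and Cdh13 rose in Yap1,Wwtr1 iPCKO samples and Cdh2 and Cdh6 fell. Thus 4 of 10 were called (40.0%), where 6.79% of all tested genes were called, 4.11% as higher and 2.68% as lower. The 10 were chosen with earlier results of these data known, so this contrast of shares is not a test. With 1 sample left out, 1 of the 10 was called as higher and 0 to 2 as lower. The groups did not overlap for 5 of the 10, the 4 called genes and Cdh4, against 35.5% of all tested genes. The median log2 fold change of the 10 was 0.09 and the median absolute log2 fold change 0.49, with 0.17 as the median absolute value over all tested genes. All 10 passed the filter on low values.

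**Figure D2:**
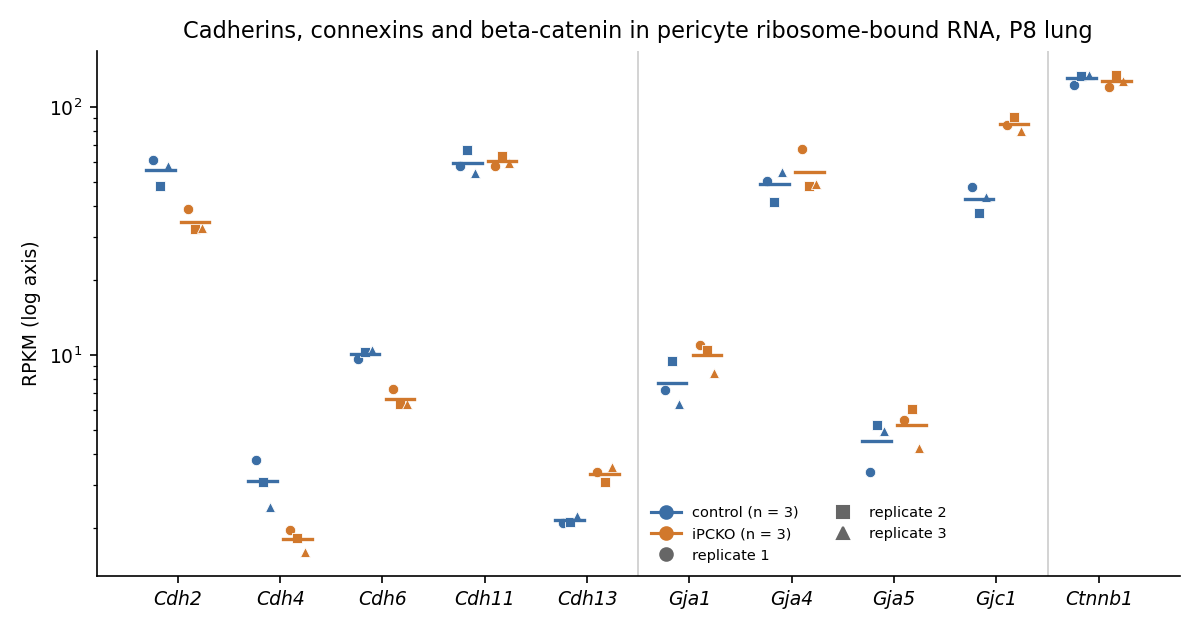
RPKM of each gene on a log axis in 3 control (blue) and 3 iPCKO (orange) samples, with symbols for the replicates and a line at each group mean. The groups are separate for Cdh2, Cdh4, Cdh6, Cdh13 and Gjc1, and overlap for the other 5 genes.

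The 4 connexins are members of 1 channel family. Each connexin has a pair of extracellular loops that dock with the loops of a connexin on the neighbouring cell, held in shape by 3 cysteines per loop. Gja1 encodes Cx43, Gja4 encodes Cx37, Gja5 encodes Cx40 and Gjc1 encodes Cx45. Coding sequences of docking loops are printed because they show the pattern that the family shares and the bases at which its 4 genes differ. They come from GENCODE M21 transcripts (GRCm38), run 5′ to 3′ on the coding strand, and have the cysteine codons in capitals. The first loop, cut here from its first to its last cysteine codon, lies at chr10:56387706-56387741 (plus strand) in Gja1, chr4:127312774-127312809 (minus strand) in Gja4, chr3:97050788-97050823 (plus strand) in Gja5 and chr11:102800984-102801019 (minus strand) in Gjc1.
Gja1 first loop: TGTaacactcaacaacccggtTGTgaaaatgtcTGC
Gja4 first loop: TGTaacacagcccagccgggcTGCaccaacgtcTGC
Gja5 first loop: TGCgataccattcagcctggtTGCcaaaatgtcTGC
Gjc1 first loop: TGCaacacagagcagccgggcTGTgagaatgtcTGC

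The second loop of Gja1, Gja4 and Gjc1 was cut in the same way, at chr10:56388105-56388140 in Gja1, chr4:127312375-127312410 in Gja4 and chr11:102800516-102800551 in Gjc1, on the same strands.
Gja1 second loop: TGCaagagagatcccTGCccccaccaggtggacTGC
Gja4 second loop: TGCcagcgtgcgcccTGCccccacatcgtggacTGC
Gjc1 second loop: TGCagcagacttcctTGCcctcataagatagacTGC

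All loops printed hold 3 cysteine codons in the spacing of their loop. Over 36 bases of the first loop, Gjc1 shared 28 bases with Gja1, 28 with Gja4 and 25 with Gja5. Over 36 bases of the second loop it shared 26 with Gja1 and 21 with Gja4. In the transcripts used, the open reading frames hold 382 codons in Gja1, 333 in Gja4, 368 in Gja5 and 396 in Gjc1. In Gja1, Gja4 and Gjc1, the coding sequence lies in 1 exon of the transcript used. That of the Gja5 transcript lies in 2 exons, and other Gja5 transcripts were not examined.

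Gjc1 (ENSMUSG00000034520, chr11:102799579-102819700) showed the largest change of the 10 genes. Its levels were 47.6, 37.3 and 43.3 RPKM in controls and 84.4, 90.7 and 80.3 RPKM in iPCKO samples. Every iPCKO value lay above every control value, with a wide gap between the groups. The mean rose from 42.8 ± 5.17 to 85.1 ± 5.28 RPKM (SD, n = 3 each), 1.99-fold. The log2 fold change was 1.0 (SE 0.11, 95% interval 0.75 to 1.25, limma adjusted p = 0.00068). Against control 2 alone the log2 difference was 1.19. The call held without each sample in turn, with log2 fold changes of 0.9 to 1.08. With Y-linked transcripts as a covariate the adjusted p was 0.00581, and within the 4 libraries without Y-linked transcripts it was 0.0206, which misses the threshold. Cx45 is known from mural and smooth muscle cells and from the conduction system of the heart. The sum of cardiac muscle markers given above was higher in the iPCKO samples. Myh6, a defining cardiac gene, read 1.23, 4.51 and 3.44 RPKM in controls and 4.11, 9.34 and 5.09 RPKM in iPCKO samples. The groups overlapped, with a 2.02-fold higher iPCKO mean (log2 fold change 1.08, 95% interval 0.05 to 2.12, limma adjusted p = 0.15). The part of these other cells in the Gjc1 value was not tested.

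Gja4 (ENSMUSG00000050234, chr4:127311421-127314039) encodes Cx37, a connexin of arterial endothelium that is also found in mural cells. Its levels were 50.4, 41.2 and 54.9 RPKM in controls and 67.5, 47.9 and 48.7 RPKM in iPCKO samples. Replicate 1 of the iPCKO group was the highest sample, and the other iPCKO samples fell inside the control range. The means were 48.8 ± 7.01 and 54.7 ± 11.1 RPKM (SD, n = 3 each), and the log2 fold change was 0.16 (SE 0.16, 95% interval -0.2 to 0.52, limma adjusted p = 0.56).

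Gja1 (ENSMUSG00000050953, chr10:56377330-56402513) encodes Cx43, the most widely expressed connexin and the one best known from contacts of pericytes with endothelium. Its levels were 7.22, 9.49 and 6.36 RPKM in controls and 11.0, 10.5 and 8.47 RPKM in iPCKO samples. The groups overlapped, since control 2 lay above the lowest iPCKO sample. The means were 7.69 ± 1.62 and 9.98 ± 1.32 RPKM (SD, n = 3 each), and the log2 fold change was 0.38 (SE 0.16, 95% interval 0.02 to 0.75, limma adjusted p = 0.15). Against control 2 alone the log2 difference was 0.06.

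Gja5 (ENSMUSG00000057123, chr3:96904693-97077416) encodes Cx40, a connexin of arterial endothelium and the atrium. It read 3.37, 5.22 and 4.92 RPKM in controls and 5.48, 6.05 and 4.21 RPKM in iPCKO samples. The lowest iPCKO sample lay below a pair of controls. The means were 4.5 ± 0.993 and 5.24 ± 0.941 RPKM (SD, n = 3 each), and the log2 fold change was 0.23 (SE 0.19, 95% interval -0.21 to 0.66, limma adjusted p = 0.47). Its exons share 165 bases (2.87% of their length) with those of Gpr89 on the opposite strand, and the strand setting used for counting is not given in the sources used here. The arterial endothelial sum was higher in the iPCKO samples, as given above, while Pecam1 and Cdh5 overlapped between groups.

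Per length, Gja4 and Gjc1 thus made up most connexin signal of the 4 genes, and the balance between them differed between the groups. The summed RPKM of the 4 connexins was 109, 93.2 and 110 RPKM in controls and 168, 155 and 142 RPKM in iPCKO samples. Gjc1 held 43.9%, 40.1% and 39.5% of this sum in controls and 50.1%, 58.5% and 56.6% in iPCKO samples, a difference of 13.9 percentage points. Gja4 held 46.4%, 44.2% and 50.2% in controls and 40.1%, 30.9% and 34.4% in iPCKO samples, a difference of -11.8 percentage points. In controls Gja4 held more than Gjc1 in each sample, and in iPCKO samples Gjc1 held more than Gja4 in each sample. Which of these genes holds more within a group depends on the exon lengths used, and how they were set is not given. Both shares were separate between groups, at p = 0.1 in a two-sided exact permutation test, the smallest p that 3 against 3 samples allow. Shares of 1 sum are tied to each other, and the Gja4 level itself was not called. Gja1 held 7.55 ± 2.32% and 6.42 ± 0.399% of the sum (SD, n = 3 each, exact permutation p = 0.8), and Gja5 4.39 ± 1.25% and 3.37 ± 0.475% (exact permutation p = 0.3).

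**Figure D3:**
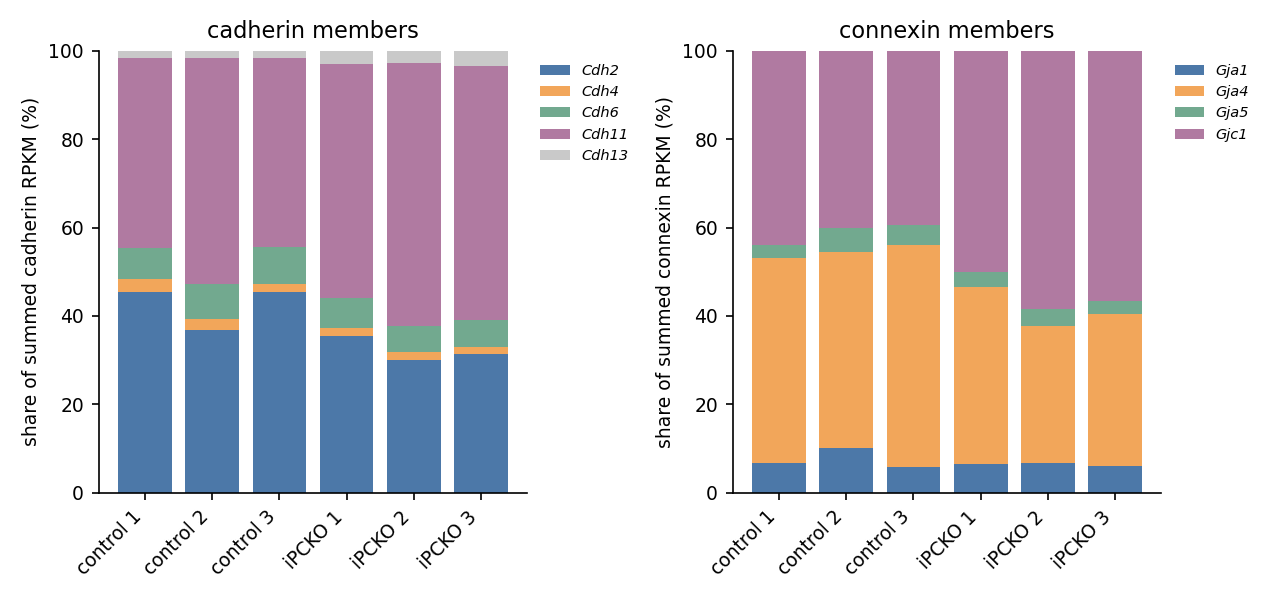
Share of each gene in the summed RPKM of the 5 cadherins (left) and of the 4 connexins (right), in percent, as 1 stacked bar per sample. The Gjc1 segment takes 39.5% to 43.9% in controls and 50.1% to 58.5% in iPCKO samples, and the Cdh2 segment 36.9% to 45.5% and 30.1% to 35.5%.

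The cadherins moved in both directions: Cdh2 and Cdh6 fell, Cdh13 rose, and Cdh4 and Cdh11 were not called. Cdh2 (ENSMUSG00000024304, chr18:16588877-16809246) encodes N-cadherin, the classical cadherin of contacts between pericytes and endothelial cells. Its levels were 61.3, 48.2 and 57.6 RPKM in controls and 38.8, 32.2 and 32.5 RPKM in iPCKO samples. All iPCKO samples lay below all controls, and control 2 was the lowest control. The mean fell from 55.7 ± 6.72 to 34.5 ± 3.75 RPKM (SD, n = 3 each), that is to 61.9% of its control level. The log2 fold change was -0.69 (SE 0.12, 95% interval -0.96 to -0.42, limma adjusted p = 0.006), and -0.49 against control 2 alone. The call was lost without control 1 (log2 fold change -0.62, limma adjusted p = 0.0199), without control 3 (-0.66, 0.03), without iPCKO 2 (-0.64, 0.0296) and without iPCKO 3 (-0.65, 0.0271). It was also lost with Y-linked transcripts as a covariate (limma adjusted p = 0.153).

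Cdh4 (ENSMUSG00000000305, chr2:179442431-179899373) encodes R-cadherin, a near relative of N-cadherin first known from the retina. It read 3.78, 3.08 and 2.44 RPKM in controls and 1.98, 1.83 and 1.61 RPKM in iPCKO samples. The groups did not overlap. The means were 3.1 ± 0.669 and 1.81 ± 0.186 RPKM (SD, n = 3 each), and the log2 fold change was -0.73 (SE 0.17, 95% interval -1.12 to -0.34), with a limma adjusted p of 0.024 that missed the threshold. The value rested on an implied 167 to 615 reads per sample.

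Cdh6 (ENSMUSG00000039385, chr15:13028701-13173675) encodes K-cadherin, a type II cadherin known from the kidney. Its levels were 9.6, 10.3 and 10.5 RPKM in controls and 7.29, 6.35 and 6.32 RPKM in iPCKO samples. The groups were separate and each was tight. The mean fell from 10.1 ± 0.458 to 6.65 ± 0.549 RPKM (SD, n = 3 each), that is to 65.8% of its control level. The log2 fold change was -0.6 (SE 0.094, 95% interval -0.81 to -0.38, limma adjusted p = 0.0037), and -0.62 against control 2 alone. The call was lost without control 2 (log2 fold change -0.59, limma adjusted p = 0.0184), without control 3 (-0.57, 0.0231), without iPCKO 2 (-0.57, 0.0221) and without iPCKO 3 (-0.56, 0.0159), and with Y-linked transcripts as a covariate (limma adjusted p = 0.0686).

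Cdh11 (ENSMUSG00000031673, chr8:102632095-102785642) encodes OB-cadherin, a type II cadherin of mesenchymal cells and fibroblasts. Its levels were 57.9, 66.9 and 54.2 RPKM in controls and 57.9, 63.4 and 59.6 RPKM in iPCKO samples. All 3 iPCKO values lay inside the control range. The means were 59.6 ± 6.54 and 60.3 ± 2.81 RPKM (SD, n = 3 each), with a log2 fold change of 0.02 (SE 0.1, 95% interval -0.21 to 0.25, limma adjusted p = 0.92). Fibroblast and myofibroblast markers overlapped between the groups, at 499 to 681 RPKM and 585 to 781 RPKM in sum, with 1 of 12 called as lower.

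Cdh13 (ENSMUSG00000031841, chr8:118283733-119324921) encodes T-cadherin, which is held in the membrane by a lipid anchor, has no cytoplasmic tail for β-catenin and binds adiponectin. It read 2.1, 2.13 and 2.24 RPKM in controls and 3.38, 3.07 and 3.53 RPKM in iPCKO samples. The controls lay close together and all iPCKO samples lay above them. The mean rose from 2.16 ± 0.0768 to 3.33 ± 0.236 RPKM (SD, n = 3 each), 1.54-fold. The log2 fold change was 0.6 (SE 0.11, 95% interval 0.34 to 0.86, limma adjusted p = 0.0091), and 0.62 against control 2 alone. This call was just past the threshold and was lost when any 1 of the 6 samples was left out, with log2 fold changes of 0.56 to 0.65 and limma adjusted p of 0.0217 to 0.0366. Endothelial and smooth muscle cells also express T-cadherin. Their marker sums overlapped between the groups, although 2 of 12 endothelial markers rose, and 2 of 10 tested smooth muscle markers rose and 2 fell. The cardiac, epithelial and arterial endothelial sums were higher in the iPCKO samples. The part of all these cells in the Cdh13 value was not tested.

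The summed RPKM of the 5 cadherins was 135, 131 and 127 RPKM in controls and 109, 107 and 104 RPKM in iPCKO samples. Cdh2 and Cdh11 made up most of it. Cdh2 held 45.5%, 36.9% and 45.4% of the sum in controls and 35.5%, 30.1% and 31.3% in iPCKO samples, while Cdh11 held 43.0%, 51.2% and 42.7% and then 53.0%, 59.4% and 57.6%. The Cdh2 share was thus 10.3 percentage points lower and the Cdh11 share 11.0 percentage points higher in iPCKO samples, although the Cdh11 level was not called. The share of Cdh13 was 1.65 ± 0.106% and 3.12 ± 0.271%, that of Cdh6 7.75 ± 0.569% and 6.24 ± 0.376%, and that of Cdh4 2.36 ± 0.442% and 1.69 ± 0.128% (SD, n = 3 each). All 5 shares were separate between the groups, at the smallest p of the two-sided exact permutation test (p = 0.1 each). Shares of 1 sum are tied to each other, so these are not 5 separate results. The levels of 35.5% of all tested genes also did not overlap between the groups. Stacked bars of both families show the segments by sample.

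Ctnnb1 (ENSMUSG00000006932, chr9:120929216-120960507) had the highest level of the 10 genes in both groups. It read 123, 133 and 135 RPKM in controls and 120, 135 and 127 RPKM in iPCKO samples. The groups overlapped over nearly their whole range. The means were 130 ± 6.19 and 127 ± 7.81 RPKM (SD, n = 3 each), and the log2 fold change was -0.04 (SE 0.096, 95% interval -0.26 to 0.18, limma adjusted p = 0.83). Its exons share 759 bases (14.6%) with Ulk4 on the opposite strand and 23 bases with Mir7090. These are transcript levels, and β-catenin is known to be regulated largely through the stability of the protein.

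**Figure D4:**
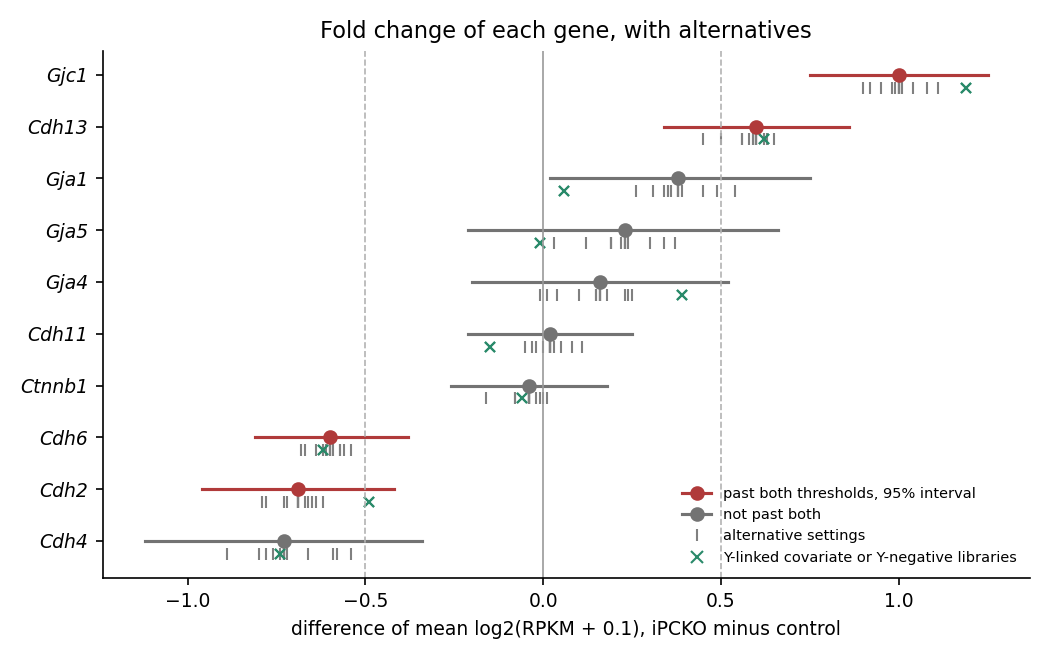
Log2 fold change of each gene, iPCKO minus control, with its 95% interval (red where called, grey where not), dashed lines at the fold threshold of 0.5 in either direction, grey ticks for other settings and green crosses for the fits on Y-linked transcripts, which have the same estimate. The values run from -0.73 for Cdh4 to 1.0 for Gjc1. The crosses stand apart from the main value for Cdh2 (-0.49), Cdh11 (-0.15), Gja1 (0.06), Gja4 (0.39), Gja5 (-0.01) and Gjc1 (1.19).

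In controls the order of mean levels was Ctnnb1, Cdh11, Cdh2, Gja4, Gjc1, Cdh6, Gja1, Gja5, Cdh4 and Cdh13. Cdh11, Cdh2, Gja4 and Gjc1 formed a run in which the ranges of neighbours overlapped, and so did Gja5 and Cdh4. In iPCKO samples the order was Ctnnb1, Gjc1, Cdh11, Gja4, Cdh2, Gja1, Cdh6, Gja5, Cdh13 and Cdh4, and among neighbours only the ranges of Cdh11 and Gja4 overlapped. Gjc1 was thus in place 5 in controls and place 2 in iPCKO samples, and Cdh2 in place 3 and place 5. Cdh4 and Cdh13, the genes of lowest level, changed places.

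The other cadherins of the classical and type II families were mostly at very low levels: 14 of 18 stayed below the filter. Of the 4 tested, Cdh3, which encodes P-cadherin, fell, from 2.92, 2.45 and 2.85 RPKM to 0.44, 0.375 and 0.53 RPKM (log2 fold change -2.38, SE 0.18, limma adjusted p = 0.00011, and -2.23 against control 2 alone). Cdh3 passed the filter through the controls alone, and is not read further. Cdh5, the endothelial VE-cadherin, read 32.9 ± 1.46 and 34.2 ± 0.679 RPKM, and epithelial Cdh1 (E-cadherin) 4.69 ± 0.594 and 6.1 ± 1.0 RPKM (SD, n = 3 each). Neither was called, although every iPCKO value of Cdh1 lay above every control value. The median log2 fold change of the 4 was 0.21.

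Among 26 atypical cadherins (non-clustered protocadherins, Fat, Dachsous, Celsr and Cdhr cadherins and calsyntenins), 16 were tested, and 3 fell while 0 rose. Over all tested genes, 2.68% fell and 4.11% rose. Pcdh18 was abundant, and fell from 356, 356 and 429 RPKM to 225, 173 and 168 RPKM (log2 fold change -1.02, SE 0.15, limma adjusted p = 0.0025). Pcdh19 had 4.13 ± 0.612 RPKM in controls and fell to 2.13 ± 0.146 RPKM (log2 fold change -0.92), and Pcdh12, known from endothelium, from 11.1 ± 0.929 to 6.5 ± 0.868 RPKM (log2 fold change -0.77, SD, n = 3 each). Clstn2, the other abundant gene of the list, read 119 ± 12.5 and 95.4 ± 21.2 RPKM and was not called. The median log2 fold change was -0.13, where that of all tested genes was 0. The 3 calls were 0 without control 3 or without iPCKO 2, 1 without iPCKO 3, and 0 with Y-linked transcripts as a covariate. Against control 2 alone the log2 differences were -0.93 for Pcdh18, -0.67 for Pcdh19 and -0.90 for Pcdh12.

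Of 19 other connexins and pannexins 17 stayed below the filter, and limma called 0 of the other 2, with 1 at an unadjusted p below 0.05. Panx1, a pannexin channel at about the level of Gja1, read 7.94, 7.02 and 7.28 RPKM in controls and 9.46, 9.47 and 9.06 RPKM in iPCKO samples (log2 fold change 0.33, limma adjusted p = 0.037).

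Of 28 genes for catenins and other proteins of adherens junctions, 25 were tested, 2 rose and 2 fell, with a median log2 fold change of -0.09. Among all tested genes, 4.11% rose and 2.68% fell. Arvcf, a catenin of the p120 family, fell from 16.2, 16.1 and 18.8 RPKM to 7.62, 7.23 and 6.65 RPKM (log2 fold change -1.24, SE 0.098, limma adjusted p = 0.00014). Nectin2, an immunoglobulin-type adhesion protein of the same junctions, fell from 26.0 ± 1.65 to 15.7 ± 1.27 RPKM (SD, n = 3 each, log2 fold change -0.72). Jup, which encodes plakoglobin, the nearest relative of β-catenin, rose from 20.2, 20.1 and 19.8 RPKM to 31.5, 29.2 and 26.1 RPKM (log2 fold change 0.52, SE 0.092, limma adjusted p = 0.0064). Vasp (167 ± 20.1 and 151 ± 24.4 RPKM) and Vcl (127 ± 5.57 and 139 ± 17.4 RPKM), the most abundant genes of the list, were not called. The 2 calls in the higher direction became 1 without control 1, control 2, control 3 or iPCKO 2, and the 2 in the lower direction became 1 without control 3. Epithelial cells also express Jup and Nectin2, and the epithelial sum was higher in iPCKO samples, as given above. Epcam and Cdh1 were not called, but Cdh1 did not overlap, at 4.0 to 5.07 RPKM in controls and 5.09 to 7.1 RPKM in iPCKO samples. The part of epithelial cells in the Jup and Nectin2 values was not tested. Against control 2 alone the log2 differences were -1.16 for Arvcf, -0.61 for Nectin2 and 0.52 for Jup.

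Of 25 genes for the β-catenin destruction complex and the Tcf/Lef factors, 24 were tested, and limma called 0, with 5 at an unadjusted p below 0.05 and a median log2 fold change of -0.08. The casein kinases Csnk1a1 (46.2 ± 2.15 and 46.8 ± 1.47 RPKM) and Csnk1e (39.0 ± 8.19 and 33.4 ± 4.02 RPKM) were the most abundant (SD, n = 3 each). Of 19 genes known as β-catenin targets, 15 were tested, 4 rose and 1 fell, and the median log2 fold change was 0.09. The shares over all tested genes were 4.11% higher and 2.68% lower. Wif1, a secreted Wnt inhibitor, rose from 3.09, 4.77 and 3.61 RPKM to 10.2, 13.3 and 14.5 RPKM (log2 fold change 1.71, SE 0.18, limma adjusted p = 0.00052). Notum, an enzyme that inactivates Wnt ligands, rose from 3.32 ± 0.841 to 8.68 ± 1.57 RPKM, and Ccnd1, which encodes cyclin D1, from 16.1 ± 1.17 to 37.3 ± 1.05 RPKM. The receptor gene Lgr6 was the other gene that rose, named after its value was seen, with a log2 fold change of 0.77. Nkd2, which encodes an inhibitor of Wnt signalling, fell from 7.17 ± 0.896 to 3.82 ± 0.233 RPKM. The most abundant targets, Tnfrsf19 (63.3 ± 1.57 and 53.0 ± 5.54 RPKM) and Cd44 (39.0 ± 4.47 and 41.5 ± 5.39 RPKM), were not called. The 4 genes that rose were 2 without control 1 or without control 3, and the 1 that fell became 0 without control 3. Against control 2 alone the log2 differences were 1.37 for Wif1, 0.99 for Notum, 1.09 for Ccnd1 and -0.67 for Nkd2, beside log2 fold changes of 1.71, 1.37, 1.2 and -0.88.

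**Figure D5:**
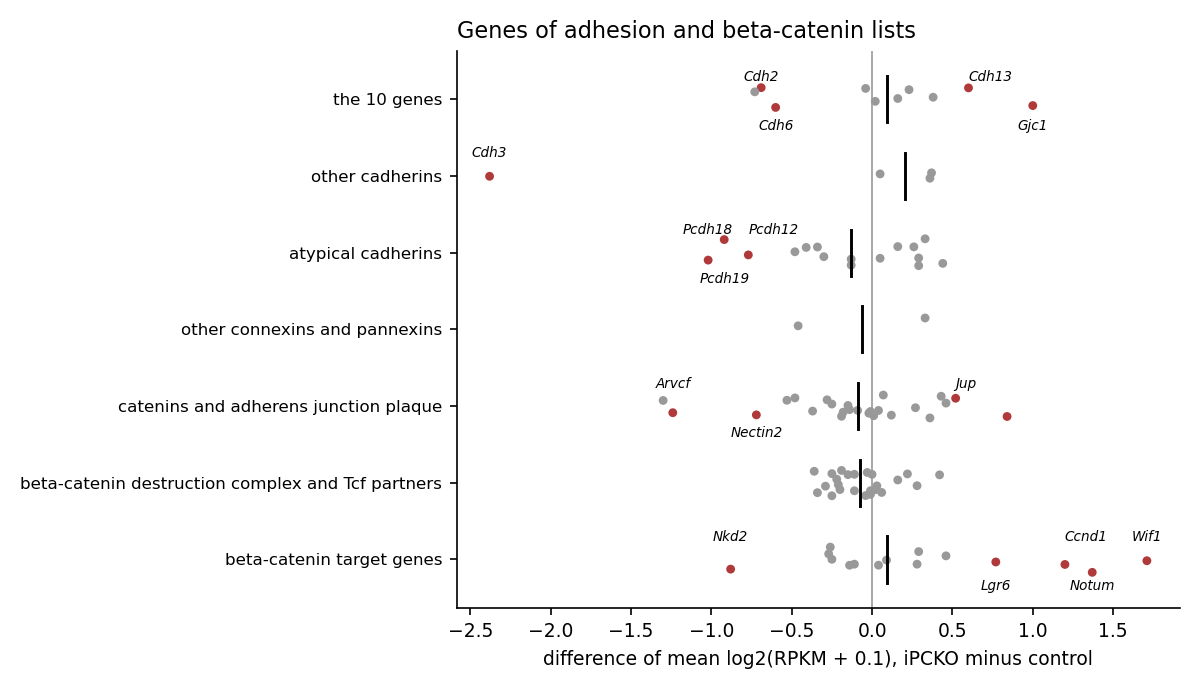
Log2 fold change, iPCKO minus control, of each tested gene of the lists, with called genes in red, those described in the text named, other genes in grey, and a black line at each list's median (vertical scatter has no meaning). Medians lie between -0.13 for atypical cadherins and 0.21 for the other cadherins, and called genes stand on both sides of 0 within the adherens junction and target lists.

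The tested genes whose pattern over the 6 samples was nearest to each called gene were sought among 12009 genes by the root mean square of the differences in log2(RPKM + 0.1), each gene set to its own control mean. Nearest to Gjc1 were Epb41l1 (0.0697), Smim3 (0.0708) and Ror2 (0.0804), and 10 genes in all came within 0.1. Near Cdh2 were Aebp2 (0.0645) and Pde5a (0.0692), with 20 genes within 0.1. Nearest to Cdh6 were Hgf (0.043), Acvr2a (0.0451) and Lrp4 (0.0472), with 46 genes within 0.1. Near Cdh13 were Cldn15 (0.0337) and Gmds (0.0627), with 32 genes within 0.1. All 6 samples share the same group difference, so these distances describe likeness of pattern and size of change together.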

How the data were processed

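Ribosome-bound RNA was pulled down with anti-HA beads from lung, giving 3 control and 3 iPCKO samples, and libraries were made with a stranded total RNA kit. Per the paper's methods and the submitters' notes, the authors used TopHat to align to mm10 and HTSeq 0.6.1 to count by gene, and tested counts with DESeq2. The deposited values used here are RPKM, 1 table per sample with 21603 genes and no counts. How exon lengths were set, and HTSeq's strand setting, are not given in the sources used here. Symbols came from GENCODE M21 (21375 matched).

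Groups followed the labels. RPKM were taken as log2(RPKM + 0.1) without further scaling, and genes with 1 RPKM or more in 3 or more samples were tested with limma 3.58.1 (R 4.3.3; eBayes with an intensity trend, Benjamini-Hochberg). Since the tables hold no counts, no count model was used. Single shares were compared with exact permutation tests (scipy 1.17.1). Depth was implied from low RPKM values as multiples of 1 read: 75.1% to 77.1% lay within 0.02 of a whole read, giving 14240000 to 39600000 reads per sample; reads per gene are approximate. The script was tested on simulated data. Named genes were the 10 members, and from each pathway list the called genes (at most the 4 with the largest change) and the 2 with the highest mean RPKM. For cell types, sums of marker lists and their defining genes are given. For each called member, the 3 nearest genes are given; some items these rules select are not reported here. Alternatives covered the pseudocount, filter, scaling, replicate block, trend, sample weights, thresholds, left-out samples and Y-linked transcripts. The members and lists were chosen with earlier results of these data known. Replicates may share litters, and p-values measure only the spread between these samples.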

Additional observations from a re-analysis of the deposited data

How the results depend on the processing

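Each log2 fold change was recomputed under 17 alternatives, and its sign for the called genes and Cdh4 was the same in all of them. Gjc1 kept its call in 16, Cdh6 in 11, Cdh2 in 9 and Cdh13 in 3, and Cdh11, Gja1, Gja4, Gja5 and Ctnnb1 were not called in any. Gjc1 lost its call in the libraries without Y-linked transcripts (log2 fold change 1.19). Cdh13 lost its call with a pseudocount of 1 (0.45), no filter on low values (0.60), median-ratio scaling (0.60), quantile normalization (0.56), sample weights (0.50), Y-linked transcripts as a covariate (0.62) and in the libraries without them (0.62), each time leaving 1 member or fewer called as higher (1, and 0 in the libraries without Y-linked transcripts). Cdh2 lost its call without the filter (-0.69) and without the intensity trend (-0.69), leaving 1 member called as lower. With both Y-linked settings Cdh2 (-0.49) and Cdh6 (-0.62) were not called, leaving 0, and an absolute log2 fold change above 1 left 0 members in either direction. Sample weights added Cdh4 (-0.59). The cause was not tested, except that the Y-linked settings rest on 1 control.

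All-gene calls (495 higher, 322 lower) became 998 and 592 with sample weights, 64 and 60 with the Y-linked covariate, and 17 and 14 in the libraries without Y-linked transcripts. For the lists, sample weights gave 1 atypical cadherin higher and 5 lower, 4 adherens junction genes higher and 5 lower, and 1 destruction complex gene higher. Quantile normalization and no trend each gave 1 adherens junction gene higher. The filter of 1 RPKM in all 6 samples removed Cdh3 from the test, so that 0 other cadherins were lower. With the Y-linked covariate, 0 atypical cadherins were lower, 0 adherens junction genes higher and 1 lower, and 1 target higher and 0 lower. In the libraries without Y-linked transcripts these counts, and that of other cadherins, were 0. The covariate and the 4-library fit were chosen after seeing the data.

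With 1 sample left out, log2 fold changes were -0.79 to -0.62 for Cdh2, -0.67 to -0.56 for Cdh6 and 0.56 to 0.65 for Cdh13. Members called were 1 to 1 higher and 0 to 2 lower, and all genes 222 to 558 higher and 160 to 341 lower (222 and 160 without control 3). List calls were 0 to 3 lower for atypical cadherins, 1 to 2 higher and 1 to 3 lower for adherens junction genes, and 2 to 4 higher and 0 to 1 lower for targets.

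Whether equal replicate numbers mark pairs of samples is not given in the sources used here. Same-numbered samples had correlations of 0.238, 0.092 and 0.022 of their deviations, and not every sample correlated best with its own number. With 3 samples per group such correlations cannot show the design. As a replicate block the numbers gave 579 higher and 343 lower calls, left Cdh13 uncalled (log2 fold change 0.60, limma adjusted p = 0.0166) and 1 member called as higher. A median gene shift of -0.032 under quantile normalization was the widest among the scalings. Shares given as log2 ratios to the rest of the family stayed on the same side in sign and p. Depth limits the genes of few reads most: Cdh4 and Gja5 had an implied minimum of 167 and 344 reads.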

Other observations

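The TEAD recognition letters GGAATG, or CATTCC on the other strand, were searched in the 250 bases before the start sites that RefSeq (GRCm38.p6) lists. Of the 10 genes, 5 had entries, with 6 promoters in all: Cdh6, Gja1, Gja4, Gja5 and a pair for Ctnnb1. None of the 6 windows held the letters (0 of 6), against 12.6% of 32851 promoters in the table. Cdh2, Cdh4, Cdh11, Cdh13 and Gjc1 were not searched. The absence says only that these letters are not in these windows.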
